A study of Homo sapiens with 12 samples.

Results

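The Notch genes described here are 9 genes of the human Notch signalling pathway: the receptors NOTCH1, NOTCH2 and NOTCH3, the ligands JAG1, JAG2 and DLL1, and the target genes HES1, HEY1 and NRARP. They were taken by gene symbol from a deposited table of read counts that lists 58735 annotated genes, and all 9 were found. The counts come from poly(A) RNA sequencing of 12 libraries of Beas-2b, an immortalised cell line from the lining of the human bronchus. Wild type cells and cells with a CRISPR knockout of SLC25A4 (ANT1), which encodes the mitochondrial ADP/ATP carrier ANT1, were each kept in control medium or given bleomycin, a drug that breaks DNA. The series design gives 3 biological replicates for each of the 4 groups. The labels state a bleomycin dose of 10 mg/ml and a treatment of 2 days meant to bring on senescence, a lasting arrest of cell division.

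Notch is a signalling system between touching cells. A ligand of the Jagged or Delta family on one cell binds a Notch receptor on its neighbour, and ADAM proteases and then gamma-secretase cut the receptor. The freed intracellular domain enters the nucleus, joins the DNA-binding protein RBPJ and the coactivators of the Mastermind family, and switches on targets such as HES1, HEY1 and NRARP. HES1 and HEY1 encode transcriptional repressors. NRARP encodes a small ankyrin-repeat protein that binds the Notch complex and limits its activity. In the airway epithelium, Notch signalling is known for steering basal cells towards secretory rather than ciliated fates.

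The promoters of HES1 and NRARP are shown because both genes are established Notch targets and because their read counts went in opposite directions after bleomycin. Each line gives the 250 bases before the RefSeq transcript start, read 5′ to 3′ on the gene's own strand in GRCh38.p14. HES1 lies on the plus strand (chr3:194135898-194136147) and NRARP on the minus strand (chr9:137302272-137302521). Capitals mark TGGGAA, the core of the RBPJ binding motif.
HES1: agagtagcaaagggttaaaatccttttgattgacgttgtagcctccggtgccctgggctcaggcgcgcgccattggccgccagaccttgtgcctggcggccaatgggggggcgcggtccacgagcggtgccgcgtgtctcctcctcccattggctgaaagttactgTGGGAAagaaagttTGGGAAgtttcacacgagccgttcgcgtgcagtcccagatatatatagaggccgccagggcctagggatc
NRARP: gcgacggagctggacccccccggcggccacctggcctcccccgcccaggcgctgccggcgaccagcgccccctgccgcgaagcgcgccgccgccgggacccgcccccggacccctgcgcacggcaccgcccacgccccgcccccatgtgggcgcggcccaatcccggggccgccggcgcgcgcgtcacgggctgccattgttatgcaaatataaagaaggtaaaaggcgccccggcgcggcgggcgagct
Of the 9 genes, 7 had an entry in the RefSeq promoter table, and DLL1 and HEY1 had none. TGGGAA was searched on both strands of the 300-base windows from 250 bases before the start to 50 after it. HES1 carried 2 matches, at positions -84 to -79 and -70 to -65 from the start. The longer form GTGGGAA matched 1 time in HES1, at -85 to -79, overlapping the first TGGGAA. The other 6 windows held neither, against 24.0% of 35114 human promoter windows with TGGGAA and 6.25% with GTGGGAA. The motif CACNAG, known as the N box that HES proteins bind, matched at 4 places in the HES1 window and 1 in the NRARP window. It also matched at 2 places in the NOTCH1 window and 1 each in those of NOTCH2 and NOTCH3, but not in JAG1 or JAG2. Of all windows 38.0% held it. A match is a string of letters and not a measured binding site.

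The labels speak of knockout clones without giving their number, so genotype and clone cannot be told apart. SLC25A4 ran from 16.1 to 27.5 counts-per-million (CPM) in the 6 wild type libraries and from 4.09 to 6.96 CPM in the 6 knockout libraries, with log2 fold changes of -1.78 in control medium and -2.26 in bleomycin. Library totals ran from 15753944 to 21923695 counts. Knockout control replicate 2 stood apart from its group. It held 0.364% of its counts on the mitochondrial chromosome, against 3.86% to 5.13% in the other 11 libraries, and 3469 CPM of the collagen gene COL1A1, above the other libraries. Several results that rest on it are also given without it. Of the epithelial markers, KRT8 was abundant (671 ± 79.4 CPM, SD, n = 3, in wild type control), whereas EPCAM stood at 1.48 ± 0.343 CPM and the basal keratin KRT5 had 3 counts over the same 3 libraries. The mesenchymal marker VIM was at 964 ± 121 CPM in that group, whereas COL3A1, PDGFRA and DCN of the same list were too low to test.

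Bleomycin changed 6 of the 9 Notch genes in wild type cells and the same 6, in the same directions, in knockout cells. NOTCH1, NOTCH3, JAG1 and HES1 rose, and NOTCH2 and NRARP fell, while JAG2, DLL1 and HEY1 did not pass the test in either genotype. A gene was called changed when its Benjamini-Hochberg adjusted p from edgeR's quasi-likelihood test, taken over all 16702 genes tested, was under 0.05. By that rule 43.5% of all tested genes changed in wild type cells (23.9% higher, 19.6% lower) and 43.2% in knockout cells (22.5% higher, 20.7% lower), so a call is common here. The median log2 fold change of the 9 genes was 0.68 in wild type and 0.93 in knockout cells, against 0.023 and 0.0040 over all tested genes. In both genotypes that median was the value of HEY1, the gene with the lowest counts, which was not called. The 9 genes were also chosen with earlier results of these data known, so the medians only describe them. In wild type cells 5 genes had all 3 bleomycin libraries above all 3 control libraries and 2 had them below, where 32.1% and 29.2% of all tested genes did. In knockout cells these counts were 4 and 1, against 27.4% and 23.9%. All 9 genes passed the filter on low counts. HEY1 exceeded its limit of 0.544 CPM in 7 of the 12 libraries and the other 8 genes exceeded it in all 12.

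**Figure D1:**
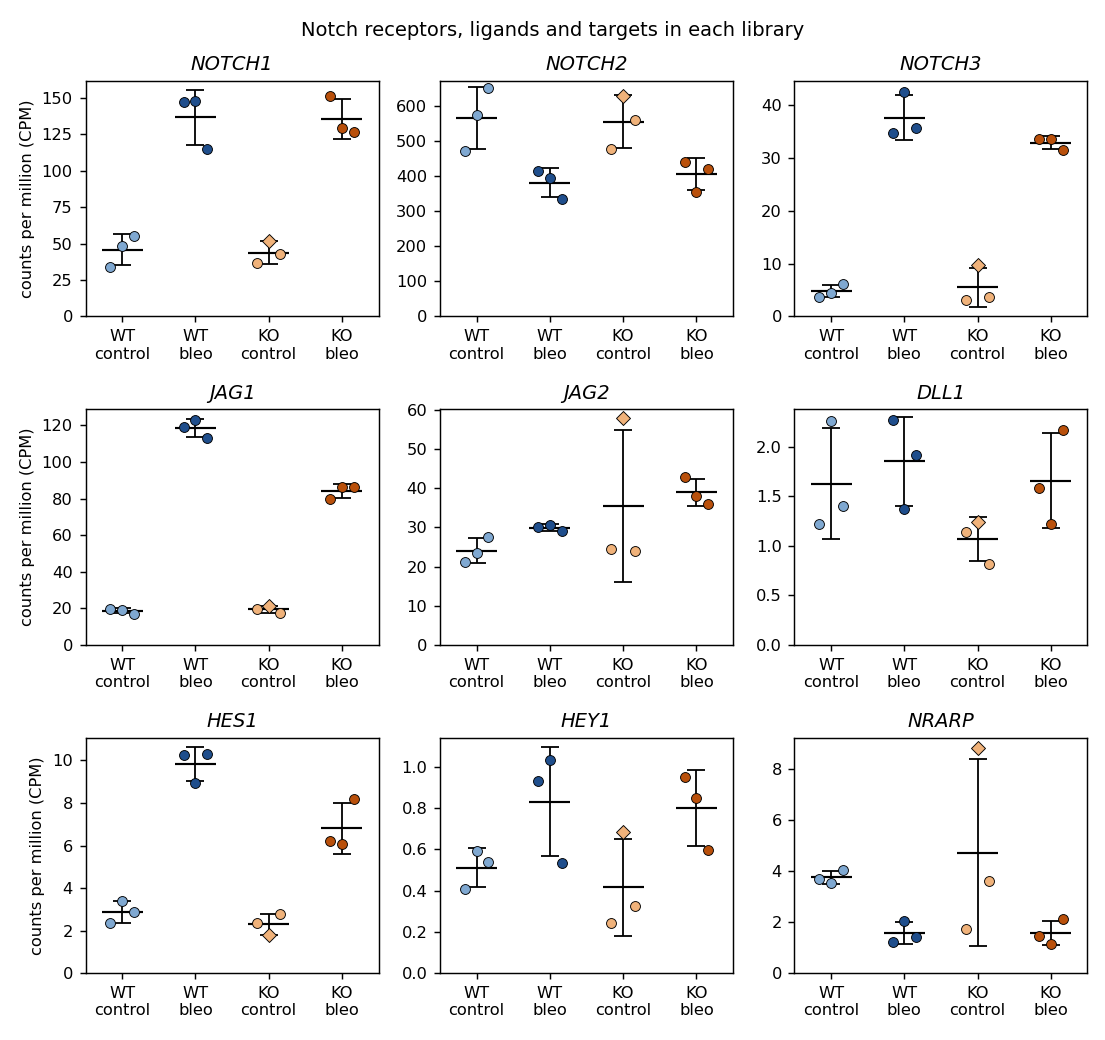
CPM of each of the 9 Notch genes in each of the 12 libraries, by group, with the group mean as a line and knockout control replicate 2 as a diamond. NOTCH1, NOTCH3, JAG1 and HES1 are higher in every bleomycin library than in every control library of the same genotype, and the diamond lies above every other library for JAG2 and NRARP. Error bars are SD over 3 libraries.

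NOTCH1 (ENSG00000148400; chromosome 9, 136494433 to 136545786, minus strand) encodes a receptor expressed in many epithelia. Wild type control libraries held 34.0, 48.6 and 55.2 CPM, and wild type bleomycin libraries 147, 148 and 115 CPM. Knockout control libraries held 36.4, 51.8 and 43.2 CPM, and knockout bleomycin libraries 152, 129 and 127 CPM. In both genotypes the lowest bleomycin library lay above the highest control library, and the genotypes overlapped within each medium. The rise was 2.98-fold in wild type cells (log2 fold change 1.57, SE 0.18, adjusted p = 1.075e-05) and 3.10-fold in knockout cells (1.63, SE 0.18, adjusted p = 1.006e-05).

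NOTCH3 (ENSG00000074181; chromosome 19, 15159038 to 15200981, minus strand), best known as the receptor of vascular smooth muscle and also expressed in airway basal cells, had the largest fold change of the 3 receptors in both genotypes. Its wild type libraries read 3.76, 4.49 and 6.05 CPM in control medium and 34.6, 42.4 and 35.6 CPM in bleomycin. Its knockout libraries read 3.02, 9.75 and 3.66 CPM in control medium and 33.6, 33.5 and 31.4 CPM in bleomycin. Control and bleomycin libraries did not overlap, and the highest control value, 9.75 CPM, belonged to knockout control replicate 2. NOTCH3 rose 7.88-fold in wild type cells (log2 fold change 2.98, SE 0.33, adjusted p = 1.252e-05) and 6.03-fold in knockout cells (2.59, SE 0.33, adjusted p = 4.889e-05). Without knockout control replicate 2 the rise in knockout cells was 9.78-fold.

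NOTCH2 (ENSG00000134250; chromosome 1, 119911553 to 120069626, minus strand) fell. Wild type libraries held 472, 573 and 650 CPM in control medium and 413, 395 and 334 CPM in bleomycin. Knockout libraries held 477, 628 and 559 CPM in control medium and 441, 354 and 420 CPM in bleomycin. The control and bleomycin ranges lay close to each other without overlapping in either genotype. The fall was 1.48-fold in wild type cells (log2 fold change -0.57, SE 0.14, adjusted p = 0.00526) and 1.37-fold in knockout cells (-0.45, SE 0.14, adjusted p = 0.0199). The knockout call was lost without knockout bleomycin replicate 2 (adjusted p = 0.0920). NOTCH2 has a near-identical partial copy, NOTCH2NLA, so reads may have been split between them or discarded.

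Because the deposited FPKM are scaled for gene length as well as library size, they allow the receptors to be set against each other. NOTCH2 made up 87.2% ± 0.973 (SD, n = 3) of the summed FPKM of NOTCH1 to NOTCH4 in wild type control cells and 56.7% ± 1.14 after bleomycin. NOTCH1 went from 11.4% ± 0.915 to 32.9% ± 1.03, and NOTCH3 from 1.31% ± 0.119 to 10.1% ± 1.22. Bleomycin-treated cells thus held a more even mix of receptor transcripts, with NOTCH2 still the most abundant. Knockout cells went from 87.3% ± 1.21 to 59.1% ± 2.40 for NOTCH2, from 11.1% ± 0.316 to 32.1% ± 1.83 for NOTCH1 and from 1.47% ± 0.794 to 8.62% ± 0.838 for NOTCH3. None of these shares overlapped between media. The two-sided exact permutation test gave p = 0.1 for each, the smallest that 3 libraries against 3 allow (adjusted p = 0.18 over 36 comparisons of shares). The summed receptor level itself ran from 31.8 to 44.6 FPKM in control libraries and from 34.7 to 43.7 FPKM in bleomycin libraries, which overlapped.

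**Figure D2:**
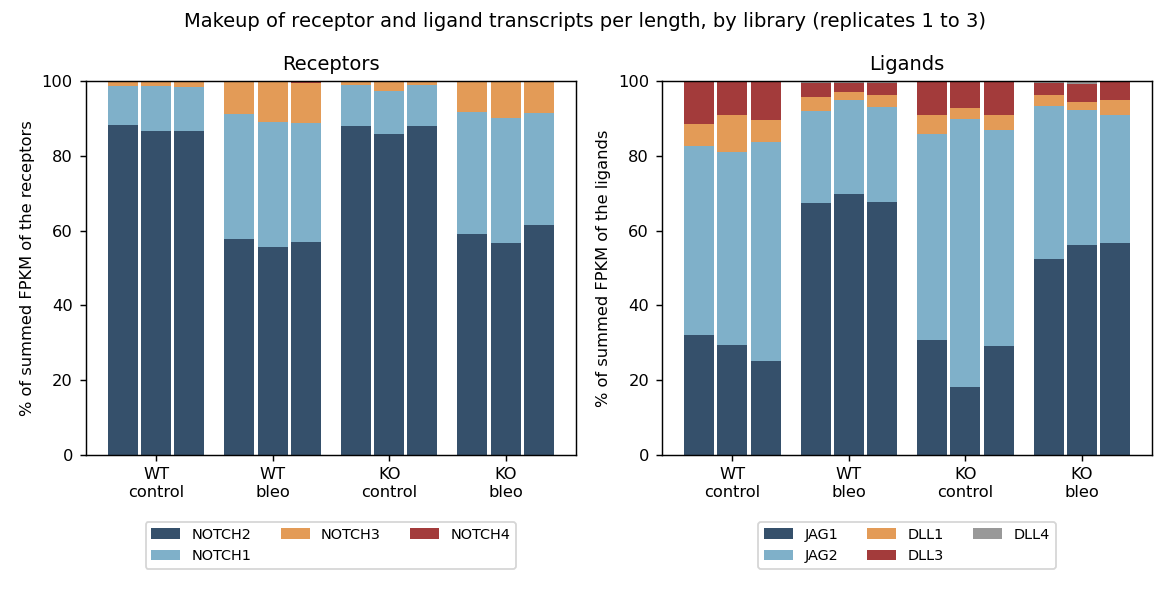
Share of summed FPKM, in percent, of each Notch receptor (left) and each Notch ligand (right) in each of the 12 libraries, grouped by genotype and medium. The NOTCH2 share drops from over 85% in control libraries to under 62% in bleomycin libraries, and JAG1 passes JAG2 as the leading ligand in bleomycin.

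JAG1 (ENSG00000101384; chromosome 20, 10637684 to 10673999, minus strand), a ligand that is also known as a Notch target in some tissues, gave the lowest adjusted p of the 9 genes in both genotypes. Wild type libraries held 19.5, 19.3 and 17.1 CPM in control medium and 119, 123 and 113 CPM in bleomycin. Knockout libraries held 19.7, 21.2 and 17.5 CPM in control medium and 79.8, 86.2 and 86.4 CPM in bleomycin. Replicates lay close together, bleomycin libraries stood far above control libraries, and every knockout bleomycin library lay below every wild type bleomycin library. JAG1 rose 6.35-fold in wild type cells (log2 fold change 2.67, SE 0.10, adjusted p = 3.371e-10) and 4.32-fold in knockout cells (2.11, SE 0.10, adjusted p = 3.576e-09). JAG1 shares 79 exonic bases with the antisense gene AL050403.2, and the sources used here do not say whether reads were counted by strand.

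JAG2 (ENSG00000184916; chromosome 14, 105140981 to 105168824, minus strand), the second Jagged ligand, did not pass the test in either genotype. Wild type libraries held 21.2, 23.5 and 27.6 CPM in control medium and 30.2, 30.6 and 29.02 CPM in bleomycin. Knockout libraries held 24.5, 58.0 and 24.1 CPM in control medium and 42.7, 38.1 and 35.9 CPM in bleomycin. Wild type bleomycin libraries lay just above the control libraries, and in knockout cells replicate 2 of the control group stood above every other library. Its log2 fold change was 0.31 (SE 0.27, adjusted p = 0.380) for wild type cells. For knockout cells it was 0.13 (SE 0.27, adjusted p = 0.719). Without knockout control replicate 2, JAG2 passed in both genotypes, with log2 fold changes of 0.32 (adjusted p = 0.00758) and 0.68 (adjusted p = 2.488e-05). In that fit 57.2% of all genes passed in wild type cells and 49.1% in knockout cells. JAG2 shares 469 exonic bases with AL512356.1, a gene on the same strand.

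DLL1 (ENSG00000198719; chromosome 6, 170282206 to 170306565, minus strand), a Delta ligand, was low in all groups. Wild type libraries read 1.22, 2.27 and 1.40 CPM in control medium, then 2.27, 1.37 and 1.92 CPM in bleomycin. Knockout libraries read 1.15, 1.24 and 0.819 CPM in control medium, then 1.59, 1.22 and 2.17 CPM in bleomycin. Control and bleomycin libraries overlapped in both genotypes, with log2 fold changes of 0.18 (SE 0.31, adjusted p = 0.677) and 0.64 (SE 0.34, adjusted p = 0.147). Its counts summed to between 54 and 104 in a group.

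Among the ligands the balance moved from JAG2 to JAG1. JAG1 made up 28.8% ± 3.56 of the summed FPKM of JAG1, JAG2, DLL1, DLL3 and DLL4 in wild type control cells and 68.2% ± 1.30 after bleomycin, while JAG2 went from 53.7% ± 4.30 to 25.1% ± 0.254. In knockout cells JAG1 went from 25.9% ± 6.84 to 55.0% ± 2.30 and JAG2 from 61.7% ± 8.86 to 37.0% ± 3.37. The JAG1 and JAG2 shares overlapped neither between media nor, in bleomycin, between genotypes (exact permutation p = 0.1 for each, adjusted p = 0.18 over the same 36 comparisons). The summed ligand level ran from 6.47 to 12.6 FPKM in control libraries and from 16.1 to 18.9 FPKM in bleomycin libraries. The highest control value, 12.6 FPKM, was knockout control replicate 2.

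The 3 target genes did not move together. HES1 rose, NRARP fell and HEY1 did not pass the test. HES1 (ENSG00000114315; chromosome 3, 194136145 to 194138732, plus strand), whose promoter with 2 TGGGAA matches is printed above, held 2.39, 3.40 and 2.86 CPM in wild type control and 10.3, 8.93 and 10.3 CPM in wild type bleomycin. Knockout libraries held 2.35, 1.80 and 2.78 CPM in control medium and 6.21, 6.05 and 8.198 CPM in bleomycin. Bleomycin libraries lay above control libraries in both genotypes, and the knockout bleomycin libraries lay below the wild type ones. HES1 rose 3.40-fold in wild type cells (log2 fold change 1.76, SE 0.20, adjusted p = 8.865e-06) and 2.93-fold in knockout cells (1.55, SE 0.21, adjusted p = 5.252e-05).

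NRARP (ENSG00000198435; chromosome 9, 137300482 to 137302251, minus strand), the feedback inhibitor, held 3.71, 3.54 and 4.05 CPM in wild type control and 1.24, 2.06 and 1.44 CPM in wild type bleomycin. Knockout libraries held 1.75, 8.82 and 3.602 CPM in control medium and 1.46, 1.17 and 2.12 CPM in bleomycin. Wild type media did not overlap, whereas in knockout cells the control libraries spread widely and overlapped the bleomycin libraries. NRARP fell 2.39-fold in wild type cells (log2 fold change -1.25, SE 0.47, adjusted p = 0.0443) and 2.97-fold in knockout cells (-1.57, SE 0.47, adjusted p = 0.0161). The wild type call was lost without any 1 of the 6 wild type libraries (adjusted p from 0.0541 to 0.134). Without knockout control replicate 2 the knockout change was 1.70-fold and did not pass (adjusted p = 0.0544), and the wild type change passed with adjusted p = 0.000619.

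HEY1 (ENSG00000164683) had the lowest counts of the 9 genes. Wild type libraries held 8, 13 and 10 counts in control medium and 18, 18 and 10 counts in bleomycin. Knockout libraries held 4, 11 and 6 counts in control medium and 15, 16 and 11 counts in bleomycin. Media overlapped in both genotypes, with log2 fold changes of 0.68 (SE 0.40, adjusted p = 0.193) and 0.93 (SE 0.43, adjusted p = 0.0995). Without knockout control replicate 2, HEY1 passed in knockout cells with a log2 fold change of 1.45 (adjusted p = 0.0250).

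**Figure D3:**
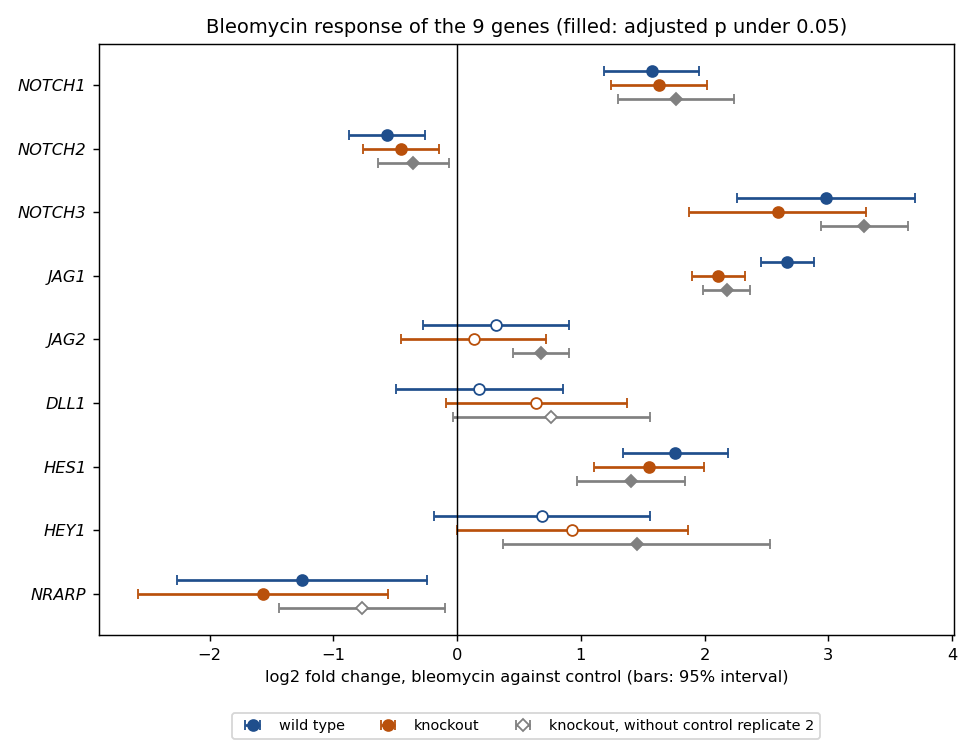
Log2 fold change of each of the 9 Notch genes in bleomycin against control, with 95% intervals, in wild type cells, in knockout cells and in knockout cells without control replicate 2. Filled symbols mark an adjusted p under 0.05. The JAG1 intervals of the 2 genotypes lie apart, and leaving out the library changes which symbols are filled for JAG2, HEY1 and NRARP.

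The summed markers of some cell types moved with the medium, and those of others overlapped between media. The summed level of 6 airway basal markers ran from 171 to 179 CPM in wild type control and from 320 to 359 CPM in wild type bleomycin, and from 219 to 244 and from 355 to 399 CPM in knockout cells. KRT17, ITGA6 and the nerve growth factor receptor NGFR (15.3-fold in wild type cells) rose in both genotypes. TP63 was also called higher, but it exceeded the filter limit in 3 bleomycin libraries alone, and KRT5 and KRT14 were too low to test. The 5 secretory markers summed to at most 0.378 CPM in control libraries and to 2.99 to 5.38 CPM in bleomycin. MUC5AC was the one tested, through its 6 bleomycin libraries alone. The 5 leukocyte markers summed to 19.6 to 40.8 CPM in control libraries and to 2.06 to 5.95 CPM in bleomycin. Nearly all of this was CD14, which fell 9.80-fold in wild type cells, and PTPRC and CD3E were too low to test. The 5 epithelial markers summed to 875 to 1091 CPM in control libraries and to 588 to 788 CPM in bleomycin. KRT8 and KRT18 carried this sum and fell in both genotypes, while KRT19 rose from 17.9 ± 4.19 to 62.1 ± 12.2 CPM in wild type and from 21.3 ± 6.89 to 61.9 ± 9.31 CPM in knockout cells. The 5 endothelial markers summed to 2.34 to 4.22 CPM in control libraries and to 3.09 to 4.09 CPM in bleomycin, but single members moved. CDH5 went from 2.22 ± 0.569 to 0.482 ± 0.125 CPM in wild type cells and fell in both genotypes. KDR rose in both and VWF in wild type cells, but they exceeded the filter limit in only 6 and 8 libraries. PECAM1 was too low to test. The 4 ciliated markers summed to 10.7 to 15.8 CPM in control libraries and to 12.3 to 14.0 CPM in bleomycin. Among them FOXJ1 had 0 counts over the 6 control libraries and 47 and 41 counts over the wild type and knockout bleomycin libraries, through which alone it was tested and called higher. Mesenchymal markers (7 genes) summed to 1530 to 4341 CPM in control libraries, the highest in knockout control replicate 2, and to 1688 to 1881 CPM in bleomycin. Of the 4 tested, 2 were called higher and 1 lower in wild type cells, and 1 higher and 2 lower in knockout cells. Over all tested genes 23.9% and 22.5% rose and 19.6% and 20.7% fell. The part of the cell type markers in the Notch results was not tested. In bulk RNA, fewer cells of a type and less RNA per cell cannot be told apart.

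Knockout and wild type cells in control medium showed no called difference in any of the 9 genes. The groups overlapped for all 9, where 6.84% of all tested genes lay wholly higher and 5.41% wholly lower in knockout cells. By edgeR's quasi-likelihood test 28 genes of 16702 (0.168%) passed in this comparison, and none of the 9 passed. None of the 9 had an unadjusted p under 0.05, where 9.95% of all tested genes did. DESeq2 also called none of the 9. The widest differences were a log2 fold change of -0.62 for DLL1 (adjusted p = 0.536) and 0.56 for JAG2 (adjusted p = 0.510). Without knockout control replicate 2, when 1.01% of all genes passed, JAG2 stood at 0.013, DLL1 at -0.75 and HEY1 at -0.83. In the same fit NOTCH3 went from 0.19 to -0.50 and NRARP from 0.32 to -0.48, and none of the 9 was called.

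In bleomycin, JAG1 and HES1 were lower in knockout than in wild type cells, but neither difference passed the test over all genes. The log2 fold change was -0.49 for JAG1 (SE 0.09, 95% interval -0.69 to -0.29, adjusted p = 0.134), a level 1.41-fold lower. It was -0.53 for HES1 (SE 0.18, adjusted p = 0.557). For both, all 3 knockout libraries lay below all 3 wild type libraries, as they also did for NOTCH3 (-0.19, adjusted p = 0.999). JAG2 had all 3 knockout libraries above (0.38, adjusted p = 0.951), and over all tested genes 9.6% lay wholly lower and 8.99% wholly higher. No Notch gene was called among the 8 genes (0.0479%) that passed in this comparison. JAG1 and HES1 had an unadjusted p under 0.05, as 6.6% of all tested genes did, and JAG1 ranked 16 of 16702 by p.

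The JAG1 difference kept its direction over all 13 alternative settings, with log2 fold changes from -0.52 to -0.45, but it passed the threshold in 5 of them. It passed with DESeq2 (adjusted p = 0.000154), with limma on log2(FPKM + 1) (0.0481), with no filter on low counts (0.0316) and in a fit of the bleomycin libraries alone (0.000519). Knockout control replicate 2 is in neither group compared, yet enters the shared estimate of spread. Without that library the adjusted p of JAG1 was 0.000791, and JAG2 passed as well (0.0431), as did 1.76% of all genes. With 1 bleomycin library left out at a time the adjusted p of JAG1 was 0.280 to 0.728.

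The difference between the genotypes in their bleomycin response was tested as an interaction. For JAG1 it was -0.55 on the log2 scale (SE 0.13, 95% interval -0.84 to -0.26, unadjusted p = 0.00118, adjusted p = 0.881), ranking 18 of all genes. Without knockout control replicate 2 the JAG1 interaction was -0.49 (adjusted p = 0.170), in a fit where 0.0419% of all genes passed. With all 12 libraries no gene of the 16702 (0%) passed the interaction test with edgeR's quasi-likelihood test. There 4.61% had an unadjusted p under 0.05, and JAG1 alone among the 9 Notch genes did. DESeq2 called 7 genes in all, none of them among the 9. These comparisons share libraries with those above, so the values are set side by side and not counted as separate evidence.

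Per length, NOTCH2 led in every group. In wild type control cells it stood at 33.5 ± 5.26 FPKM (SD, n = 3), above NOTCH1 at 4.42 ± 1.03 and JAG2 at 3.76 ± 0.503, which overlapped. NRARP (2.12 ± 0.1505) and JAG1 (2.00 ± 0.143) overlapped next, followed by HES1 (1.39 ± 0.240), by NOTCH3 (0.506 ± 0.124) and DLL1 (0.504 ± 0.171), which overlapped, and by HEY1 (0.158 ± 0.0287). After bleomycin the wild type order was NOTCH2 at 22.5 ± 2.39 FPKM, NOTCH1 at 13.1 ± 1.77 and JAG1 at 12.6 ± 0.488, the last 2 overlapping. HES1 (4.73 ± 0.386) and JAG2 (4.64 ± 0.114) overlapped below them, then NOTCH3 (3.96 ± 0.440), then NRARP (0.885 ± 0.238) and DLL1 (0.570 ± 0.139), which overlapped, and HEY1 (0.255 ± 0.0798). JAG1 thus moved from the fifth to the third place and NRARP from the fourth to the seventh. In knockout cells JAG1 went from 2.09 ± 0.199 to 8.96 ± 0.452 FPKM. NRARP was at 0.885 ± 0.275 FPKM after bleomycin, and in control medium it read 0.986, 4.97 and 2.03 FPKM. Its place there rested on replicate 2, since the other libraries lay on both sides of JAG1.

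A wider list of 52 other pathway genes, of which 47 passed the filter, changed about as often as genes at large. In wild type cells 7 rose, 12 fell and 28 did not pass (40.4% called, against 43.5% of all genes). In knockout cells 7 rose, 9 fell and 31 did not pass (34% called, against 43.2%). The genes called in both genotypes numbered 15, which is 78.9% of the wild type calls and 93.8% of the knockout calls. Without knockout control replicate 2, 25 of the 47 (53.2%) were called in knockout cells and 27 (57.4%) in wild type cells, where 49.1% and 57.2% of all genes were. No gene of the list was called between genotypes in either medium or in the interaction with edgeR's quasi-likelihood test or DESeq2. With edgeR 8, 5 and 1 had an unadjusted p under 0.05, as did 9.95%, 6.6% and 4.61% of all tested genes.

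In the nuclear complex and its corepressors, none of 14 genes rose, and 6 fell in wild type and 4 in knockout cells. Over all tested genes 23.9% and 22.5% rose and 19.6% and 20.7% fell. The nuclear genes that fell numbered 8 and 6 without knockout control replicate 2, and again none rose. That is 57.1% and 42.9% of them called, in a fit where 57.2% and 49.1% of all tested genes were called in either direction. RBPJ itself, the DNA-binding partner of every Notch receptor, had log2 fold changes of 0.09 and 0.13 (-0.075 without that library) and was not called. TLE3, a Groucho-type corepressor recruited by HES proteins, fell 2.25-fold in wild type and 2.36-fold in knockout cells (adjusted p = 6.06e-05 and 4.543e-05). The knockout fall of TLE3 was 1.97-fold without knockout control replicate 2. The acetyltransferase gene KAT2B fell 1.69-fold and 1.48-fold, and the deacetylase gene HDAC1 fell 1.53-fold and 1.42-fold. The coactivator genes MAML1 and MAML3 fell in wild type cells, by 1.55-fold and 1.87-fold, with knockout log2 fold changes of -0.21 and -0.37 that did not pass. With knockout control replicate 2 left out, MAML1 passed in knockout cells as well (-0.35, adjusted p = 0.00511), and MAML3 did not (-0.44, adjusted p = 0.253).

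Among 9 protease genes none rose and 2 fell in each genotype. Over all tested genes 23.9% rose and 19.6% fell in wild type cells, and 22.5% rose and 20.7% fell in knockout cells. Leaving out knockout control replicate 2 gave 1 higher and 4 lower in wild type cells, and 0 higher and 3 lower in knockout cells. In that fit 57.2% and 49.1% of all tested genes were called in either direction. APH1A, which encodes a part of gamma-secretase, fell 1.39-fold in wild type and 1.31-fold in knockout cells. Of the ubiquitin ligases and endocytic regulators 11 were tested, with 3 higher and 2 lower in each genotype. FBXW7, which marks the Notch intracellular domain for breakdown, rose 3.52-fold and 2.97-fold (adjusted p = 7.96e-09 and 3.841e-08). MIB2, a ligase that promotes ligand endocytosis, rose 2.55-fold and 1.79-fold, and NUMBL, related to the Notch inhibitor NUMB, fell 2.14-fold and 1.81-fold. DTX4, a Deltex ligase, rose 1.51-fold and 1.61-fold. Among 5 genes that add sugars to the receptors, POGLUT1, a protein O-glucosyltransferase, rose 2.73-fold and 2.29-fold.

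The other HES and HEY genes spread in both directions, as the 3 targets did. Of 7 listed, 5 were tested, with 2 higher and 1 lower in each genotype. Over all tested genes 23.9% and 22.5% rose and 19.6% and 20.7% fell. HES2 held 0.244 ± 0.108 CPM in wild type control and 16.3 ± 1.43 CPM in wild type bleomycin, and 0.319 ± 0.155 and 14.4 ± 1.17 CPM in knockout cells. It rose 63.9-fold and 44.9-fold and passed the filter through its 6 bleomycin libraries alone. The lower knockout figure for HES2 rested on knockout control replicate 2. Once that library was dropped, the rise was 61.1-fold in knockout cells, beside 63.8-fold in wild type cells. HES6, which counteracts HES1, rose 3.94-fold in wild type and 1.99-fold in knockout cells (3.55-fold without knockout control replicate 2, which held 33.4 CPM). HES7 fell 4.26-fold and 5.75-fold, the latter 3.62-fold without that library. HES4 was not called, with a log2 fold change of -0.88 in knockout cells, and stood at 159 CPM in knockout control replicate 2 against 27.5 and 32.5 CPM in the rest of its group. Without that library the sign turned, and HES4 passed in knockout cells with a log2 fold change of 0.40 (adjusted p = 0.0278). The ligand DLL4, too low to test, had 1 count over the wild type control libraries and 28 over the wild type bleomycin libraries, and 1 and 18 in knockout cells.

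**Figure D4:**
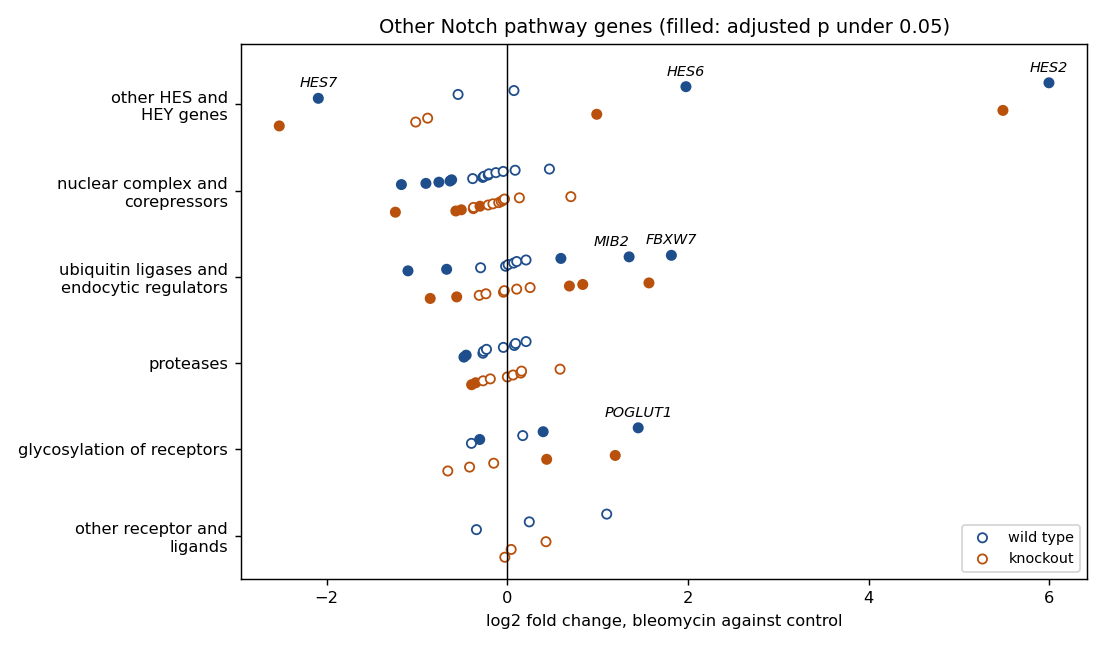
Log2 fold change in bleomycin against control (horizontal axis) of the 47 tested genes of the wider list, in rows by role, for wild type (blue) and knockout cells (orange), each point 1 gene and filled where its adjusted p is under 0.05. HES2 lies farthest right in both genotypes, and no filled point of the nuclear complex lies right of 0.

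Genes whose log2 CPM followed a Notch gene most closely over the 12 libraries were sought among 11568 genes. The libraries fall into the 2 media, so any gene that responds strongly shares this pattern. For NOTCH1 the closest were PLEKHG5 (Pearson r = 0.994), PLXNB2 (0.992) and PGPEP1 (0.992). The r of their deviations from the group means with those of NOTCH1 was 0.906, 0.915 and 0.902. The correlation by which genes were chosen already contains these deviations, so here and below their r is not separate evidence. For JAG1 the closest were CD109, FGF2 and E2F7 (r = 0.997, 0.996 and 0.996), with deviations at r = 0.282, 0.752 and 0.143. For HES1 they were AP4E1, ANXA8L1 and ZBED9 (r = 0.986, 0.985 and 0.984), with deviations at r = 0.670, 0.922 and 0.825. Within groups NOTCH1 and NOTCH2 varied together (r of deviations 0.924), although bleomycin moved them in opposite directions. JAG2 and NOTCH3 did so as well (0.964), and both had their highest control value in knockout control replicate 2.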

How the data were processed

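The deposited table holds read counts per gene, which the submitters' processing notes place with the tools HISAT2 2.0.5 and featureCounts 1.5.0-p3, and the authors' FPKM per gene in a second set of columns. Genome build, strand setting and trimming are not given in the sources used here. Gene coordinates and lengths in the table equal those of GENCODE for GRCh38 for all 9 genes. The deposited FPKM used a divisor of 0.963 to 1.05 times each library's count total. CPM were computed with edgeR from library totals scaled by TMM factors.

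Genes were filtered with filterByExpr of edgeR 4.0.16 (minimum count 10), which left 16702. Counts were scaled by TMM and 4 group means were fitted to all 12 libraries with the robust quasi-likelihood test, in R 4.3.3, with Benjamini-Hochberg adjustment and a threshold of 0.05. Alternatives were RLE size factors, no filter, DESeq2 1.42.0, limma 3.58.1 on log2(FPKM + 1), only the groups compared, a replicate block, and each library left out. The scripts were tested on simulated counts. The 3 libraries of a group are called biological replicates, without saying whether they are separate cultures. The p-values thus set group differences against the spread between these libraries.

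All 9 members were named in each comparison, and of the wider list up to 10 called genes by adjusted p, plus RBPJ, MAML1, MAML3, HES4 and DLL4, chosen after their values were seen. The members and lists were chosen with earlier results of these data known. Same-numbered libraries did not deviate together (18 pairs, correlations -0.128 to 0.109), so the numbers were not taken to pair them. For NOTCH1, JAG1 and HES1, the 3 protein-coding genes outside the lists with the highest correlation were named. Over the library totals, 3 counts corresponded to 0.137 to 0.19 CPM.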

Additional observations from a re-analysis of the deposited data

How the results depend on the processing

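Bleomycin calls of NOTCH1, NOTCH3, JAG1 and HES1 held under every alternative tried, 13 in wild type and 12 in knockout cells. The number of the 9 genes called ran from 5 to 7 in wild type and from 4 to 7 in knockout cells with 1 library left out, and that of the wider list from 15 to 27 and from 13 to 25. Of all tested genes, 57.2% and 49.1% were called without knockout control replicate 2, against 43.5% and 43.2% with all 12 libraries. For the fits without another library that share is not given here. Leaving out knockout control replicate 2 was planned for the comparisons that hold it and added after seeing the data for the other 2. Between genotypes in bleomycin, 1 of the 9 was called with no filter, 1 with DESeq2, 1 with limma on log2(FPKM + 1) and 2 in a fit of only the groups compared, and with 1 library left out 0 to 2. With no filter 2 genes of the wider list were called between genotypes in control medium. For the fits with no filter, with limma and of only the groups compared, the share over all genes is not given here. NRARP fell below the threshold in wild type cells with limma (adjusted p = 0.0728) and in knockout cells in a fit of only the groups compared (0.0748) or without knockout bleomycin replicate 2 (0.0681). With the replicate block, the counts of the 9 genes called were 6, 6, 0, 0 and 0 over the 5 comparisons and those of the wider list 19, 16, 0, 0 and 0, the numbers found without it.

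Among the 9 genes, signs that turned belonged to values that were not called. NRARP between genotypes in bleomycin was -0.0021 with limma. With 1 library left out, log2 fold changes between genotypes in control medium ran from -0.26 to 0.084 for NOTCH1, -0.16 to 0.087 for NOTCH2, -0.50 to 0.48 for NOTCH3, -0.0048 to 0.13 for JAG1 and -0.48 to 0.72 for NRARP. In bleomycin they ran from -0.12 to 0.049 for NOTCH1, -0.41 to 0.020 for DLL1, -0.30 to 0.12 for HEY1 and -0.27 to 0.24 for NRARP. JAG2 in knockout cells ran from -0.083 to 0.68 between media. Interaction values ran from -0.095 to 0.25 for NOTCH1, -0.68 to 0.31 for NOTCH3, -0.40 to 0.36 for JAG2, -0.016 to 0.77 for HEY1 and -0.71 to 0.49 for NRARP. The cause of these shifts was not tested. Over all genes DESeq2 called 88 between genotypes in bleomycin, 38.6% of them higher, against 8 and 12.5% with edgeR, and 192 against 28 in control medium. HEY1 and DLL1 had the lowest counts over all libraries, with group sums of 21 to 46 and 54 to 104.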
